A study of Mus musculus with 10 samples.

Results

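The Mta2 knockout (KO) was compared with control in small pre-B cells, across all genes. The members were the 3 small pre-B libraries labelled Mta2_VavKO and the 3 small pre-B libraries labelled Control, taken by label, and together they are 6 of the 10 libraries of the series. The other 4 libraries are of pro-B cells, 2 from controls and 2 from Mta2 KO. All cells were sorted from the bone marrow of C57BL/6 mice, the small pre-B cells as B220+ IgM- CD43- cells of small size by light scatter and the pro-B cells as B220+ IgM- CD43+ cells. In the KO groups Mta2 is removed by a Vav-driven knockout. The Vav promoter is active throughout the blood lineages, so cells other than B cells also carry the deletion, and the labels name no further allele or agent in either group. The test covered 14161 of the 23420 genes listed. The labels do not say that the libraries came from separate animals, so the p-values measure only the spread between these libraries, which may be technical.

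Mta2 belongs to NuRD, the nucleosome remodelling and deacetylase complex, which couples a helicase that moves nucleosomes with histone deacetylases, and is best known for lowering the activity of promoters and enhancers. Small pre-B cells are the resting stage that follows the burst of division driven by the pre-B cell receptor and interleukin-7. At this stage the immunoglobulin light chain genes are rearranged, and the surface molecules Kit and CD43 of the earlier stages are lost while CD25 is gained.

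Total counts were 18502193 to 38392136 in the control libraries and 17805507 to 25821264 in the KO libraries, so that 3 counts were worth 0.0852 to 0.173 CPM (counts per 1e+06 counts, scaled between libraries). One library, small pre-B control 3, differed from the rest. On the first principal component of the 6 libraries it lay at -72.6, against -9.19 to 29.1 for the other 5. Its replication-dependent histone genes took 0.953% of the counts, against at most 0.0399% elsewhere, and its file header carries the number of control 2 in place of its own. Each main result is therefore given with and without control 3. Control 2, in turn, lay close to the KO libraries. Its median absolute log2 difference from KO 2 was 0.141, the smallest of all pairs of these libraries. That from control 1 was 0.166, and KO 1 and KO 2 differed by 0.15. Within the KO group Xist RNA was at 2518 and 2942 CPM in KO 1 and KO 2 and at 7.93 CPM in KO 3, which had the Y-linked RNA. All 3 controls had Y-linked RNA, and the part of this difference in any result was not tested beyond leaving those libraries out.

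The small pre-B libraries of both groups carried the markers of small pre-B cells at a higher summed level than the pro-B libraries. The summed level of 23 small pre-B identity genes, among them Rag1, Pax5 and Irf4, was 23595 to 27077 CPM in controls and 22443 to 28305 CPM in KO. In the pro-B libraries the same sum was 5979 to 8173 CPM. Of these 23 genes 22 did not pass the test and the median log2 fold change was 0.03, beside 0.01 over all tested genes. The member that passed was Il2ra, a marker of this stage, which fell in KO and is described below.

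Mta2 (chromosome 19, 8941920 to 8952300, mm10) was at 438, 246 and 412 CPM in controls 1 to 3 and at 199, 179 and 198 CPM in KO 1 to 3. Every KO library lay below every control, with control 2 the nearest to them. The gene fell by 0.93 in log2 units (SE 0.19, adjusted p = 0.042, edgeR quasi-likelihood test, n = 3 per group). The counts cover all exons, so reads from outside a deleted segment are included. Without control 3 the log2 fold change was -0.83 (adjusted p = 0.066) and the call was lost. The other 14 NuRD subunits did not pass, among them the paralogues Mta1 (log2 fold change 0.37) and Mta3 (0.52) and the helicase Chd4 (0.08).

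Across all genes, 267 were higher in KO and 161 were lower (adjusted p under 0.05, edgeR quasi-likelihood test with Benjamini-Hochberg adjustment). That is 1.89% of the tested genes in the upward and 1.14% in the downward direction. Without control 3, 175 of 13811 genes were higher (1.27%) and 105 were lower (0.76%). Both fits called 132 genes higher (0.932%) and 92 lower (0.65%), 224 in all. Single genes described below as changed passed in both fits unless their text says otherwise. Counts, medians and shares over sets of genes use the fit with all libraries unless another is named. The KO libraries lay above all controls in 1890 genes (13.3%) and below all of them in 1652 (11.7%), whether or not the test was passed. All 267 higher and all 161 lower genes had groups that did not overlap (100%). Where this is said of a called gene below, it describes the levels and is no separate support for the call.

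**Figure D1:**
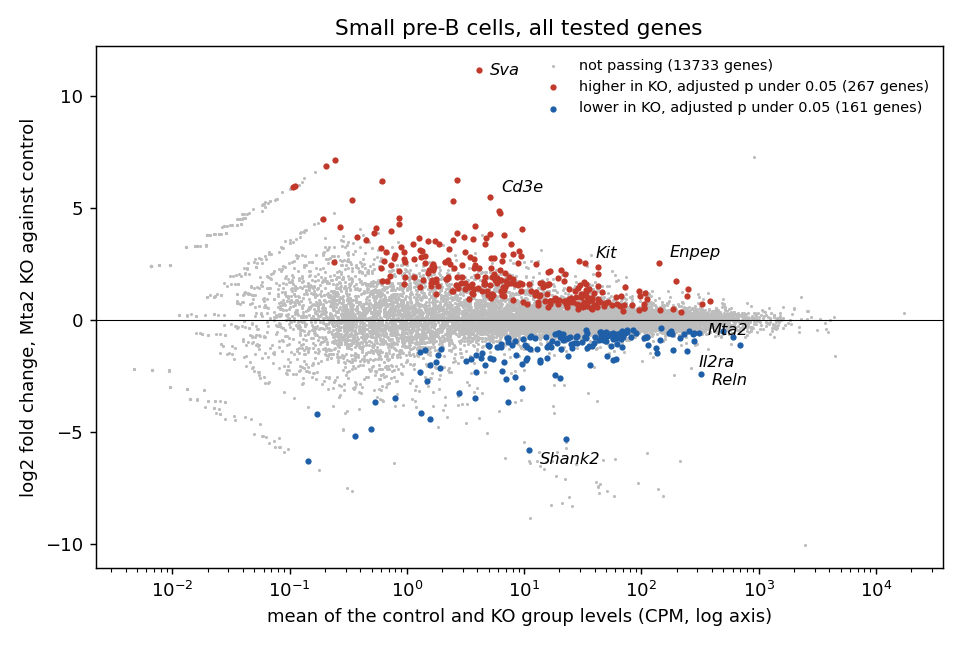
Log2 fold change of Mta2 KO against control (vertical axis) by the mean level of the gene in CPM (horizontal log axis), 1 point per tested gene in small pre-B cells. The 267 genes that passed in the upward direction (red) reach further from 0 than most of the 161 that passed downward (blue), and the fitted value of Sva rests on 0 counts in the controls.

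The genes that rose had median levels below that of all tested genes, which was 21.3 CPM in both groups. Those that fell had a median above it in controls and below it in KO. The median level of the 267 higher genes was 2.87 CPM in the controls and 10.2 CPM in KO, and that of the 161 lower genes was 34.1 CPM in controls and 15.9 CPM in KO. The median log2 fold change was 1.63 among the higher genes, 207 of which changed by at least 1, and -1.04 among the lower genes, with 84 of that size. In genes whose higher group had a mean of 1 to 10 CPM, 118 of 2956 were higher and 31 were lower. From 10 to 100 CPM, 117 of 6121 were higher and 99 were lower. Above 100 CPM, 19 of 2831 were higher and 26 were lower.

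Control 3 was the lowest control in 173 of the 267 higher genes (64.8%) and the highest control in 101 of the 161 lower genes (62.7%). Over all tested genes it was the lowest in 38.3% and the highest in 39.5%. With that library left out the median log2 fold changes of the same genes were 1.48 and -0.89.

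The number of calls depended on which libraries entered the fit. Without control 1 there was 1 higher gene and 0 lower, and without control 2 there were 937 and 730. Without KO 1 there were 4 and 0, without KO 2 10 and 8, and without KO 3 122 and 27. In the 6 small pre-B libraries fitted alone, without the pro-B libraries that share the estimate of spread, edgeR called 0 genes, with 2166 at an unadjusted p under 0.05. When the KO libraries with Xist RNA were left out, only KO 3 remained in the KO group. That fit has no spread among KO libraries to measure, so its calls are not compared with the others. DESeq2 on the 6 small pre-B libraries called 468 higher and 287 lower. All of the 428 genes that were tested in a fit kept the sign of their log2 fold change there. Sva passed in 16 of 18 alternative fits, Lama5 and Cd3e in 13, Kit and Enpep in 12, Il2ra in 11 and Ltb in 10.

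**Figure D2:**
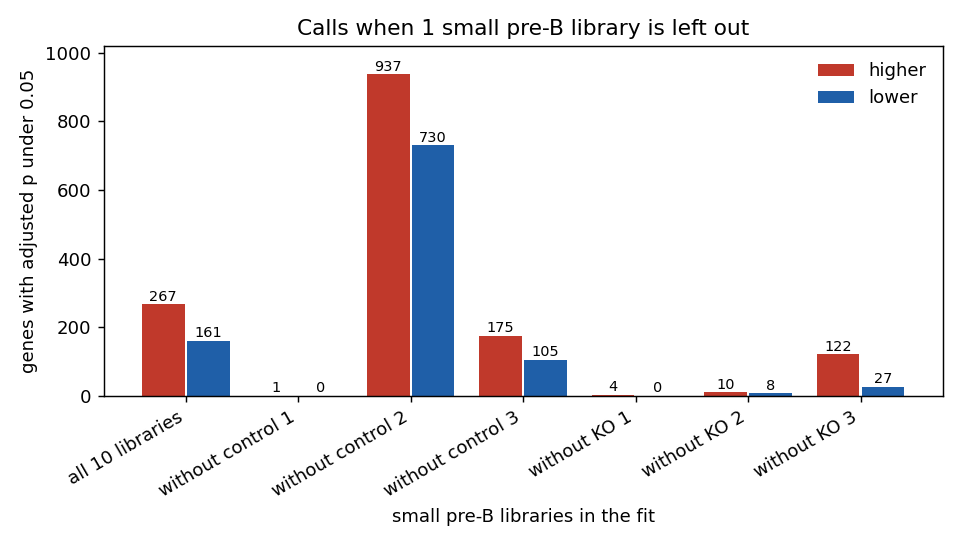
Number of genes with an adjusted p under 0.05 (vertical axis) that were higher (red) or lower (blue) in Mta2 KO, with all libraries and with 1 small pre-B library left out at a time. The bars run from 1 and 0 genes without control 1 to 937 and 730 without control 2.

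Genes that mark the passage from large to small pre-B cells were among those that changed. Il2ra, which encodes CD25, the interleukin-2 receptor alpha chain that marks pre-B cells, was at 437, 263 and 369 CPM in the controls, against 144, 120 and 152 CPM in KO. The groups did not overlap, and the highest KO library was well below the lowest control. Il2ra fell by 1.36 in log2 units (SE 0.23, adjusted p = 0.0259, edgeR quasi-likelihood test) and by 1.34 without control 3 (adjusted p = 0.0384). In pro-B cells, where Il2ra is low, its level was 20.5 and 12.8 CPM in the controls, against 8.99 and 6.76 CPM in KO.

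Kit, the receptor for stem cell factor, is carried by pro-B cells and is lost by the small pre-B stage. Kit stood at 14.9, 10.9 and 3.64 CPM in the controls, against 81.9, 50.9 and 36.3 CPM in KO. All KO libraries stood above all controls, with control 3 lowest. Kit rose by a log2 fold change of 2.54 (SE 0.47, adjusted p = 0.0317, edgeR quasi-likelihood test), and by 2.13 without control 3 (adjusted p = 0.0265). Its level in pro-B cells was 37.6 and 43.9 CPM in controls, so KO 1 and KO 2 lay above the control pro-B libraries and KO 3 just below them. In bulk samples, more cells of a type and more RNA per cell cannot be told apart.

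Enpep, the glutamyl aminopeptidase known as BP-1 on early B cells, was at 29.1, 71.3 and 22.5 CPM in the controls, against 322, 266 and 134 CPM in KO. The lowest KO library was above the highest control, and KO 3 was the lowest of the KO group. The log2 fold change was 2.56 (SE 0.45, adjusted p = 0.029, edgeR quasi-likelihood test) and 2.26 without control 3 (adjusted p = 0.0437). In pro-B cells Enpep was at 18.0 to 25.0 CPM in all 4 libraries, so the levels in small pre-B KO had no counterpart there.

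The promoters of Kit, Enpep and Il2ra, which changed in opposite directions at this stage, and of Sva, which had the largest change of all, are shown from 250 bases before to 50 after the gene start (RefSeq, GRCm38.p6, 5′ to 3′ on the gene's strand). Capitals mark CG dinucleotides, the main site of DNA methylation in vertebrates. The windows are chr5:75574737-75575036 (+) for Kit, chr3:129332700-129332999 (-) for Enpep, chr2:11642542-11642841 (+) for Il2ra and chr6:42038144-42038443 (+) for Sva.
Kit: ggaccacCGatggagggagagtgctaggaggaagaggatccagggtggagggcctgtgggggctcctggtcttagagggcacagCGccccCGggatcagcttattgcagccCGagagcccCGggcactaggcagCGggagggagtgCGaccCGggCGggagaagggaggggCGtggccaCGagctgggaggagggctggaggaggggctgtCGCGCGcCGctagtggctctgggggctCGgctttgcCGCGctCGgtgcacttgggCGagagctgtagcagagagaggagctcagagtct
Enpep: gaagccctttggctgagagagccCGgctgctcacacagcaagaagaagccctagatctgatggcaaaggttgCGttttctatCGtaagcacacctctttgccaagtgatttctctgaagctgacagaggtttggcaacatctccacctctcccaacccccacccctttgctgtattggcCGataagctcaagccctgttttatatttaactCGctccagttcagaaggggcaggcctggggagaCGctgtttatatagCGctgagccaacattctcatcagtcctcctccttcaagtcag
Il2ra: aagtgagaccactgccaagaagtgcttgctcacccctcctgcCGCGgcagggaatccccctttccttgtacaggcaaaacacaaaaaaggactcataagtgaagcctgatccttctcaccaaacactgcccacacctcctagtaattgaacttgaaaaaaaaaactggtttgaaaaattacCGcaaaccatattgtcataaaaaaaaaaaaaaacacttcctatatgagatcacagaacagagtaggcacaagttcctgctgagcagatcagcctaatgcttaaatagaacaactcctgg
Sva: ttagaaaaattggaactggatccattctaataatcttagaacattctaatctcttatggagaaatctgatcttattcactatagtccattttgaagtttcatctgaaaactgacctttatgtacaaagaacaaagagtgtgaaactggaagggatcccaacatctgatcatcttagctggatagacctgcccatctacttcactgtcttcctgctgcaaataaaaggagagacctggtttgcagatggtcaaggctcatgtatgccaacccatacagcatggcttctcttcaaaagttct
The Kit window holds 20 CG dinucleotides and 69% G+C, that of Enpep 7 and 51.3%, that of Il2ra 3 and 42.7%, and that of Sva 0 and 38.7%. None of the 4 windows holds CAGGTG or TGGGAA on either strand. These letters occur in 17.9% and 23.2% of the 10114 promoters that could be matched to tested genes. The match covered 71.4% of the tested genes, under the 80% needed to compare the composition of the called genes with the rest, so that comparison is void.

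The wider list of 20 large pre-B and pro-B genes had a median log2 fold change of 0.98, or 0.69 without control 3, beside 0.01 over all genes. Kit was its 1 member that passed, and 8 of the 20 had all KO libraries above all controls, beside 13.3% of all tested genes. Control 3 was the lowest control in 15 of the 20, beside 38.3% of all tested genes. Ccnd2, a D-type cyclin, was at 19.3, 44.6 and 7.24 CPM in controls and 82.8, 143 and 58.1 CPM in KO. Its groups did not overlap, but the adjusted p was 0.0846 (log2 fold change 2.0). The summed level of the list overlapped between groups, at 5934 to 6727 CPM in controls and 6414 to 7555 CPM in KO. In the pro-B libraries the same sum was 4757 to 5309 CPM, below every small pre-B library, so the sum does not mark the earlier stage.

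Division genes did not share such a shift. Of 28 mitosis and S phase genes 0 passed, with a median log2 fold change of -0.04. The proliferation marker Mki67 was at 675, 1153 and 1583 CPM in controls and 1009.5, 925 and 425 CPM in KO, so the groups overlapped. The summed level of the list was 3182 to 5198 CPM over the controls, 5029 and 4574 CPM in KO 1 and KO 2, and 2258 CPM in KO 3. Spry2, an inhibitor of receptor tyrosine kinase signalling, was the 1 of 19 STAT5 and cytokine target genes to pass. It rose from 30.3, 39.2 and 28.8 CPM in controls to 47.0, 56.8 and 66.2 CPM in KO (a log2 fold change of 0.79 with adjusted p = 0.0484 by edgeR), and did not pass without control 3 (0.70, adjusted p = 0.0853). The pre-B receptor signalling list had 0 of 20 members past the test and a median of 0.04.

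Surface molecules of the immune system moved in both directions. Ltb, the membrane partner of lymphotoxin alpha, was at 36.8, 52.1 and 38.9 CPM in the controls, against 73.1, 92.9 and 105 CPM in KO. Each KO library was above each control (log2 fold change 1.09, adjusted p = 0.0254, edgeR quasi-likelihood test). Ltb was among the 14 mature B and plasma cell genes that were tested, a list with a median of 0.27. Pecam1, the adhesion molecule CD31, moved the other way, from 333, 282 and 406 CPM in controls to 226, 221 and 235 CPM in KO. It fell by 0.58 on the log2 scale (adjusted p = 0.0482, edgeR quasi-likelihood test).

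Genes of the extracellular matrix formed one of the groups with most members past the test. The lists were chosen with earlier results of these data known. Of 25 tested, 7 rose and 1 fell, beside 1.89% and 1.14% of all tested genes, and in both fits 6 rose and 1 fell. The median log2 fold change of the list was 0.96, or 0.78 without control 3. Lama5, a laminin alpha chain of basement membranes, was at 0.279, 0.806 and 0.824 CPM in the controls, against 8.31, 8.38 and 12.1 CPM in KO. The lowest KO library was well above the highest control, and control 3 was not the lowest. The log2 fold change was 3.86 (SE 0.47, adjusted p = 0.0185, edgeR quasi-likelihood test), and 4.07 without control 3.

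Hspg2, the basement membrane proteoglycan perlecan, was at 0.390, 1.21 and 0.455 CPM in the controls, against 6.98, 13.0 and 6.11 CPM in KO. The groups were far apart, with a log2 fold change of 3.66 (adjusted p = 0.0254 by edgeR). Serpinh1, the chaperone of collagen folding, was at 1.0, 0.322 and 0.0284 CPM in the controls, against 11.5, 4.66 and 5.17 CPM in KO. Control 3 was lowest, and the log2 fold change went from 4.21 with it to 3.49 without it. Col18a1, the collagen from which endostatin is cut, rose from 1.23, 3.26 and 0.852 CPM to 8.25, 10.4 and 15.1 CPM (log2 fold change 2.66, adjusted p = 0.0347 by edgeR).

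The collagen hydroxylase gene Plod1 (log2 fold change 0.96), the metalloproteinase inhibitor gene Timp2 (1.45) and the laminin chain gene Lamb2 (1.30) rose as well. Lamb2 did not pass without control 3. Egfl6, a secreted protein with EGF repeats, was the member that fell, from 34.8, 22.3 and 47.9 CPM in controls to 5.42, 7.55 and 4.62 CPM in KO. Its log2 fold change was -2.57 (adjusted p = 0.0254 by edgeR). The summed level of 13 stroma and endothelium markers, as a measure of other cells that make matrix, was 321 to 434 CPM in controls and 291 to 324 CPM in KO. Most of that sum was Pecam1, which B cells make, while the bone collagen gene Col1a1 was at 0 to 0.725 CPM in controls and 0.186 to 0.474 CPM in KO.

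**Figure D3:**
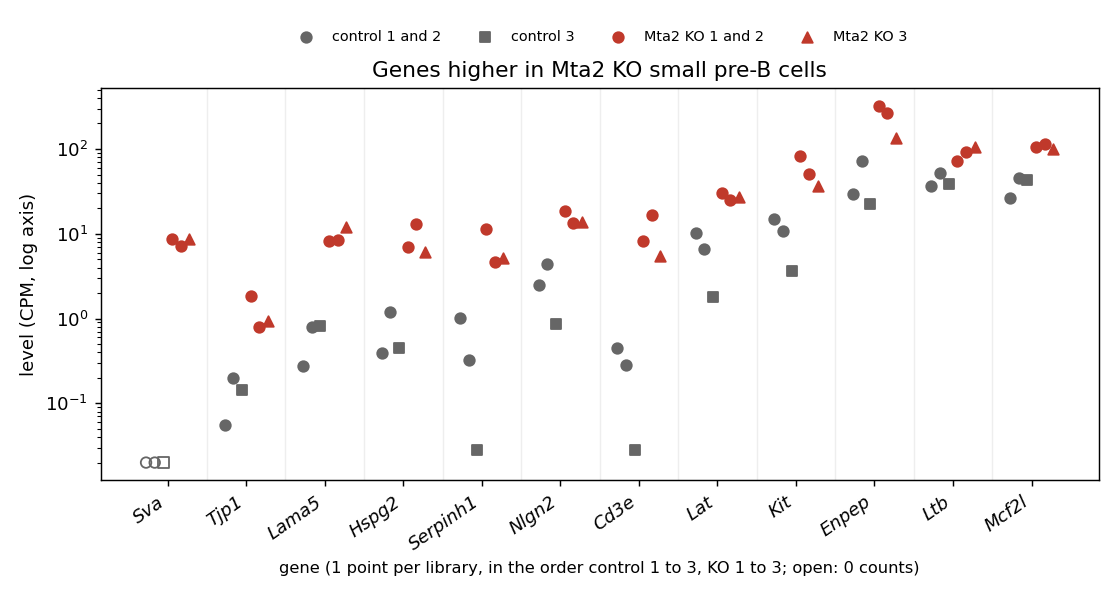
Levels in CPM (vertical log axis) of 12 genes that rose, 1 point per small pre-B library, with controls in grey and Mta2 KO in red. All red points of a gene lie above all of its grey points. The open symbols for Sva stand for 0 counts and are drawn at the bottom of the axis, and control 3 (squares) is lowest for Serpinh1, Nlgn2, Cd3e, Lat, Kit and Enpep.

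Genes best known from other tissues were also among those that rose. Sva, the seminal vesicle antigen, a secreted protein of the male reproductive tract, had 0 counts in the 3 controls and 8.71, 7.15 and 8.76 CPM in KO, from 520 counts. It was at least 211-fold higher, against a floor of 3 counts over the control group (adjusted p = 0.00121, edgeR quasi-likelihood test). The KO libraries with and without Xist RNA had alike levels. Sva was the 1 of 10 tested germline and reproductive genes to pass, and the median of that list was 0.07.

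Tjp1, the tight junction scaffold ZO-1, was at 0.0557, 0.201 and 0.142 CPM in the controls, against 1.85, 0.790 and 0.932 CPM in KO. Even in KO these levels were low, and the groups did not overlap (log2 fold change 3.04, adjusted p = 0.0254, edgeR quasi-likelihood test). Mpzl2, an adhesion molecule of epithelia and thymus, was at 0.780, 0.282 and 0.227 CPM in controls and 9.52, 22.0 and 3.78 CPM in KO, with the KO group spread widely. Its log2 fold change was 4.86 (adjusted p = 0.0254 by edgeR). Tjp1 and Mpzl2 were the 2 of 27 junction and adhesion genes to rise, beside 1.89% of all tested genes. Of the 27, 0 fell, and the median of the list was 0.44.

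Synapse and neuronal scaffold genes moved in both directions, with 5 of 25 higher and 5 lower, beside 1.89% and 1.14% of all tested genes. The postsynaptic genes Nlgn2, a neuroligin, and Dlg4, the scaffold PSD-95, rose together with the neurexin gene Nrxn2, while Shank2, Map2 and Homer1 were among those that fell. Nlgn2 was at 2.51, 4.39 and 0.852 CPM in the controls, against 18.5, 13.3 and 13.6 CPM in KO, with no overlap (log2 fold change 2.57, adjusted p = 0.0309 by edgeR). Dlg4 had a log2 fold change of 2.05 and Nrxn2 one of 1.64. Crhbp (4.80), which binds corticotropin-releasing hormone, and Ddn (3.90) were the other risers of the list.

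Shank2, a postsynaptic scaffold, went from 15.1, 6.57 and 43.3 CPM in controls to 0.288, 0.277 and 0.606 CPM in KO. Control 3 was the highest, yet the other controls were also far above the KO libraries. The log2 fold change was -5.78 (SE 0.74, adjusted p = 0.0225, edgeR quasi-likelihood test), and -4.77 without control 3 (adjusted p = 0.00639). Map2, which binds dendritic microtubules, was at 9.20, 8.14 and 23.6 CPM in the controls, against 0.462, 1.34 and 1.35 CPM in KO (a log2 fold change of -3.67 with adjusted p = 0.0254 by edgeR). Control 3 was the highest library for this gene too. Fam189a1 (-1.95) and Homer1 (-1.26), another postsynaptic scaffold, fell as well, and Homer1 did not pass without control 3.

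Reln was the lower gene whose level was among the highest at the start. It encodes reelin, the secreted guide of neuronal migration, and was at 344, 338 and 952 CPM in the controls, against 88.9, 116 and 101 CPM in KO. The groups did not overlap and control 3 stood far above the others. Reln fell by 2.41 in log2 units with all libraries (SE 0.40, adjusted p = 0.0254, edgeR quasi-likelihood test), and by 1.74 without control 3 (adjusted p = 0.0121).

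Among strongly expressed genes the changes were smaller. Ablim1, an actin-binding LIM protein, was at 1158, 695 and 992 CPM in the controls, against 521, 448 and 365 CPM in KO, with no overlap (log2 fold change -1.09, adjusted p = 0.0302 by edgeR). Kif21b, a kinesin, fell by 0.76 on the log2 scale, and the proton channel gene Hvcn1, known in B cell receptor signalling, by 0.57. Grk6, a receptor kinase, fell by 0.49, and the membrane fusion protein gene Snap29 by 0.63. Their adjusted p lay between 0.0259 for Kif21b and 0.0420 for Snap29 (edgeR quasi-likelihood test), and each passed without control 3.

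Strongly expressed genes that rose beside Enpep were Aldh2, the mitochondrial aldehyde dehydrogenase (log2 fold change 0.73), and Sgk1, a kinase of the insulin and glucocorticoid pathways (0.50). Psmb8, an immunoproteasome subunit, rose by 0.46, Rgl1, a Ral exchange factor, by 0.94, Atxn10 by 0.54 and Mcf2l, a guanine nucleotide exchange factor, by 1.47. Mcf2l showed the clearest separation among these 6, at 26.3, 46.0 and 43.4 CPM in the controls, against 105, 116 and 99.5 CPM in KO. All 6 passed with and without control 3.

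The other genes with large rises in both fits were Tmem119 (log2 fold change 5.30), known as a marker of microglia and bone-forming cells, Myl10 (4.09), Ppic (3.91), a cyclophilin, Slc45a3 (3.79) and Hhipl2 (3.59). Spock2 (3.55), a matrix proteoglycan, and Ptk7 (3.40), a receptor of planar cell polarity, completed the 15 largest among genes with a mean of at least 2 CPM in the higher group. Among the largest falls were Slc6a19 (-4.43), an amino acid transporter, Zfp418 (-3.49), Eml6 (-3.25), Abca6 (-3.02), Dmbt1 (-2.73) and Fmn2 (-2.0). Angpt1, the ligand of the endothelial receptor Tie2, fell by 2.54. Naip6 (-2.31) and Lilrb3 (-2.27) belong to families of near-identical genes, so their counts are less certain.

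**Figure D4:**
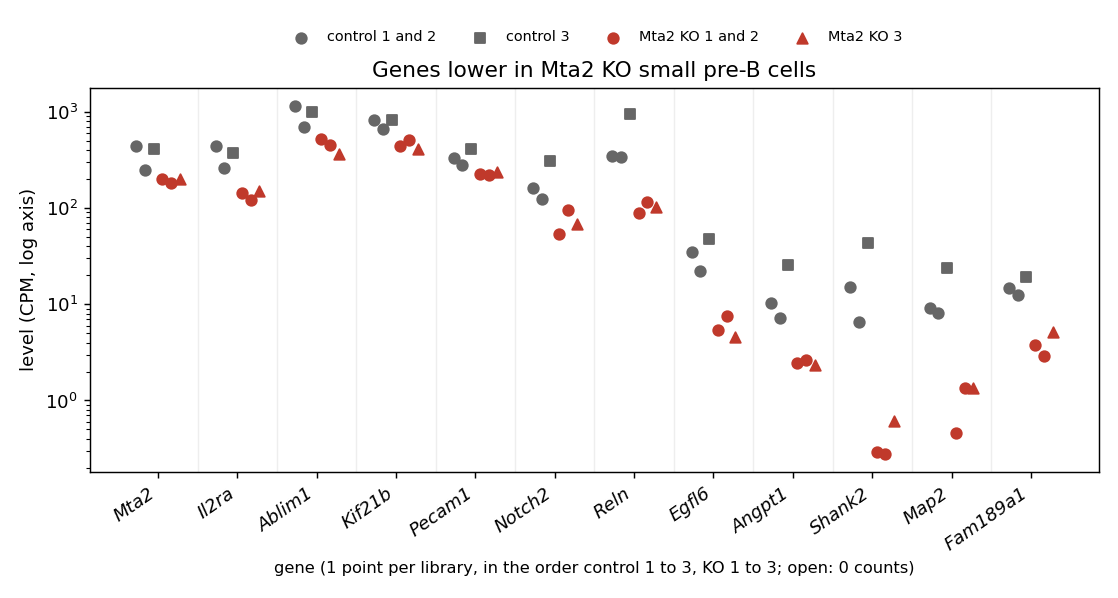
Levels in CPM (vertical log axis) of 12 genes that fell, 1 point per small pre-B library, with controls in grey and Mta2 KO in red. All red points of a gene lie below all of its grey points, and control 3 (squares) is the highest control for Pecam1, Notch2, Reln, Egfl6, Angpt1, Shank2, Map2 and Fam189a1.

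T lineage genes had the largest positive median of the 33 lists, which were chosen with earlier results of these data known. Of 18 tested, 7 rose, beside 1.89% of all tested genes, 0 fell and 11 did not pass. The median log2 fold change was 2.0, or 1.65 without control 3, where 5 of the 7 kept passing. Cd3e, a signalling chain of the T cell receptor complex, was at 0.446, 0.282 and 0.0284 CPM in the controls, against 8.13, 16.6 and 5.41 CPM in KO. The groups did not overlap, and the log2 fold change was 5.49 with control 3 and 4.82 without it. Lat, the adaptor that links the receptor to its downstream enzymes, rose from 10.1, 6.53 and 1.82 CPM to 30.1, 24.8 and 27.2 CPM (log2 fold change 2.18, adjusted p = 0.0458 by edgeR). Its 3 KO libraries were close together.

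Cd3g (3.64), Cd3d (2.83), Cd247 (1.62), Bcl11b (3.54), the transcription factor of T cell commitment, and Cd6 (2.93) were the others that rose. Bcl11b and Cd6 did not pass without control 3. In 15 of the 18 genes control 3 was the lowest control, beside 38.3% of all tested genes. In 14 of them all KO libraries lay above all controls, beside 13.3% of all tested genes. The summed level of the list was 78.3, 109.5 and 26.5 CPM in controls and 208, 303 and 189 CPM in KO. Cd4, which defines helper T cells, was at 1.11, 3.18 and 0.710 CPM in the controls, against 0.173, 4.62 and 0.186 CPM in KO. Cd8a was at 0.780, 0.282 and 0.114 CPM in the controls, against 0.635, 5.33 and 1.17 CPM in KO. Both coreceptors overlapped between the groups and were highest in KO 2. The part of T cells in the list's values was not tested.

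Markers of other cells that the gate could hold were measured beside these. Of 11 natural killer genes 0 passed, with a median log2 fold change of 0.94, or 0.38 without control 3, which had the lowest control value in all 11. Of 17 myeloid genes Ly6c2 rose (1.81), which has a near-identical neighbour in Ly6c1, and the summed level was 123 to 353 CPM in controls and 228 to 462 CPM in KO. In plasmacytoid dendritic cell genes Cd209a, under 1 CPM in every small pre-B library, fell to 1 count in KO from 51 counts in controls. The ratio was 0.0239 (95% interval 0.000592 to 0.139, exact, for counting error only), and 9 of 10 did not pass. The summed level of these 10 genes was higher in KO, at 549 to 673 CPM in controls and 703 to 892 CPM in KO. Their median log2 fold change was -0.44. In 3 of the 10 all KO libraries lay above all controls and in 1 below, beside 13.3% and 11.7% of all tested genes. Erythroid and megakaryocyte genes had 0 of 10 past the test and a median of 0.05.

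Of 20, 27 and 28 genes tested in the Notch, TGF-beta and interferon lists, 2 in each passed the test with all libraries. Over all tested genes 3.02% passed. Notch3 rose from 0.167, 0.322 and 0.114 CPM in controls to 1.67, 1.34 and 1.07 CPM in KO (a log2 fold change of 2.77 with adjusted p = 0.0207 by edgeR). Notch2, which directs marginal zone B cells, was at 162, 125 and 311 CPM in the controls, against 53.8, 95.2 and 68.8 CPM in KO, and fell by 1.46 on the log2 scale (adjusted p = 0.0484 by edgeR). Without control 3 the value for Notch2 was -0.98 and did not pass (adjusted p = 0.0521). The other 18 genes of the Notch list did not pass, and its median was -0.06.

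Smad1, which carries the signal of bone morphogenetic proteins, rose from 5.52, 9.18 and 5.51 CPM in controls to 17.5, 16.8 and 14.8 CPM in KO, a log2 fold change of 1.28. Ltbp3, which holds latent TGF-beta in the matrix, rose by 1.94. They were the 2 of 27 genes of the TGF-beta list to pass. Among 28 interferon-stimulated genes Irf7 (1.13) and Oas2 (1.63) rose with all libraries and 0 passed in both fits. The median log2 fold change of the list was 0.87, or 0.79 without control 3, and in 18 of the 28 all KO libraries were above all controls, beside 13.3% of all tested genes. The Wnt list had 0 of 26 past the test and a median of 0.47.

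A few stress and survival genes rose modestly with all libraries and did not pass without control 3. Bbc3, the BH3-only death factor PUMA, was at 7.30, 10.4 and 5.88 CPM in the controls, against 15.3, 15.7 and 19.9 CPM in KO (a log2 fold change of 1.11 with adjusted p = 0.0407 by edgeR). Xbp1, a factor of the unfolded protein response, was at 85.2, 87.5 and 86.1 CPM in the controls, against 118, 122 and 137 CPM in KO. The spread within its groups was small. Its log2 fold change was 0.54 both with and without control 3 (adjusted p = 0.0407 and 0.0520, edgeR quasi-likelihood test). Ddit3, the stress factor CHOP, rose by 1.02. The remaining 14 genes of the BCL2 family list and 18 of the unfolded protein response list did not pass.

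The imprinted long noncoding RNA gene Peg13 fell from 62.3, 47.9 and 60.6 CPM to 34.8, 36.3 and 31.7 CPM (log2 fold change -0.73, adjusted p = 0.027 by edgeR), and was the 1 of 14 imprinted genes to pass. No member passed among 20 cholesterol genes (median 0.22), 17 D cyclins and cell cycle inhibitors (0.04), 78 ribosomal protein genes (0.17) and 7 nuclear noncoding RNAs (0.33). The 51 histone genes had a median of -6.18 with control 3 and 0.05 without it, and control 3 was the highest control in all 51. Hist1h2an, for example, was at 0.167, 0.403 and 66.9 CPM in controls.

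The pro-B libraries gave a measure of the same knockout in other samples that share no control with this comparison. They also held more RNA of genes that mark other cells. The 17 myeloid genes summed to 9914 and 9965 CPM in pro-B controls and to 15223 and 22064 CPM in pro-B KO. The 10 plasmacytoid dendritic genes summed to 7057 and 7503 CPM in pro-B controls and to 7480 and 8236 CPM in pro-B KO. The part of such cells in the values below was not tested. Of the 267 genes higher in small pre-B KO, 253 also had a positive log2 fold change in pro-B cells (94.8%). Of the 161 lower genes 135 had a negative one (83.9%). Among genes called with and without control 3 the counts were 126 of 132 (95.5%) and 76 of 92 (82.6%). Over all tested genes the signs in the 2 stages were the same in 61.9%. Both pro-B KO libraries lay beyond both pro-B controls in the same direction in 221 of the higher genes (82.8%) and 112 of the lower genes (69.6%), beside 37.8% of all genes. The changes were smaller in pro-B cells, with medians of 0.54 and -0.25 there against 1.63 and -1.04 in small pre-B cells. The larger values in small pre-B cells are those by which the genes were chosen, and a comparison of the sizes was not tested for that reason.

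Sva, at 0.0191 and 0.0180 CPM in pro-B controls and at 3.0 and 3.49 CPM in pro-B KO, and Tjp1, at 0.630 and 0.810 CPM in controls and 18.1 and 21.4 CPM in KO, were the 2 higher genes that passed in pro-B cells as well. Hspg2 (log2 fold change 3.69 in pro-B cells), Lama5 (2.75), Shank2 (-4.38) and Map2 (-2.39) had pro-B values of the same sign and did not pass there. Il2ra (-1.08) and Kit (0.67) did too, while Enpep (0.25) and Smad1 (0.11) were near 0 in pro-B cells. For these genes, as for all tested genes, the difference of the KO effect between the stages did not pass (0 genes by edgeR, 907 with an unadjusted p under 0.05). A difference between the stages is therefore not shown for any gene.

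**Figure D5:**
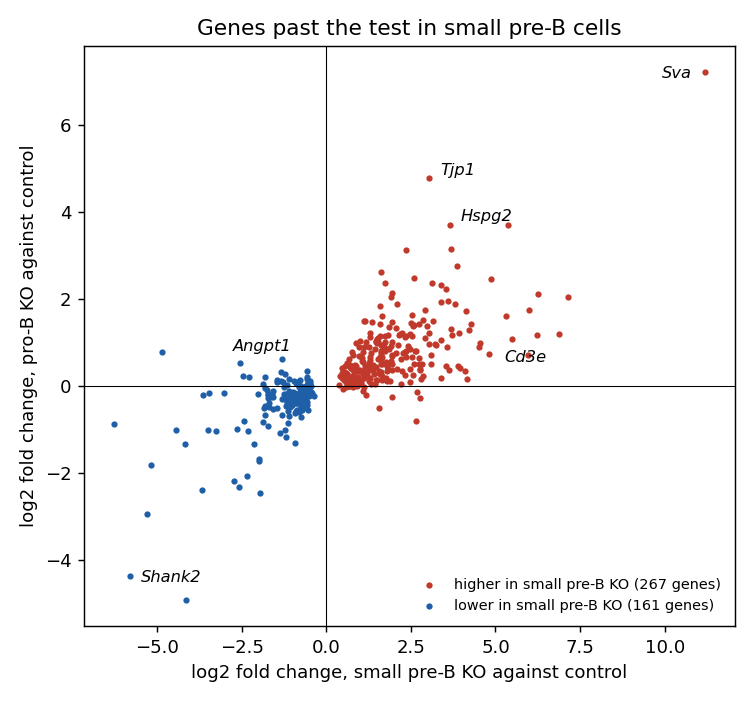
Log2 fold change in pro-B cells, KO against control (vertical axis), by that in small pre-B cells (horizontal axis), for the 428 genes that passed in small pre-B cells. Of the 267 red points 253 lie above 0 and of the 161 blue points 135 lie below 0 on the pro-B axis.

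Called genes were spread over the genome. Among chromosomes 1 to 19 and X the share of tested genes that passed ran from 1.69% on chromosome 12 to 4.35% on chromosome 1. On chromosome 19, which holds Mta2, 13 of 506 were higher and 5 were lower (3.56%). Within 5 Mb of Mta2 7 of 235 genes were higher and 1 was lower, which is 3.40% beside 3.02% of all tested genes. The higher neighbours were Ltbp3, Nrxn2 and Cd6, already described, with Pygm (log2 fold change 1.73), the muscle glycogen phosphorylase, Plcb3 (0.75), a phospholipase, Rab3il1 (2.32) and Fads3 (1.63). Dnajc4 (-0.75) was the lower one, and Cd6, Rab3il1 and Dnajc4 did not pass without control 3.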

How the data were processed

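RNA from 10 libraries of sorted mouse bone marrow B cell precursors was sequenced from stranded mRNA libraries, per the labels' protocols, and the groups were taken from the labels. The deposited files hold raw counts of reads per gene. They were made by the authors with featureCounts 1.4.3-p1 over the exons of an mm10 annotation, without a strand option, per the file headers, so reads of overlapping genes on opposite strands cannot be told apart. CASAVA 1.82, STAR and mm9 are named in the submitters' processing notes, but positions are given here in mm10 as in the files.

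Genes were filtered with filterByExpr (minimum count 10, minimum total 15) and scaled by TMM in edgeR 4.0.16 (R 4.3.3). One mean per group was fitted over all 10 libraries together (4 groups), and the quasi-likelihood F-test was used with Benjamini-Hochberg adjustment over all tested genes and a threshold of 0.05. The levels printed are CPM after TMM scaling. A fold against a group at 0 counts uses a floor of 3 counts over the group, and 95% intervals are exact and, like floors, cover counting error only. The scripts were tested on simulated data.

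The comparison and the 33 gene lists were chosen with earlier results of these data known. Genes named are Mta2, the 15 largest changes and the 8 highest levels in each direction among genes past the test with and without small pre-B control 3, with at least 2 CPM in the higher group and groups that do not overlap (predicted and small RNA genes left out), up to 6 members of each list past the test, and otherwise the 2 with the smallest p. Other list members, marker genes and neighbours of Mta2 (5 Mb) were named after their values were seen. Alternatives were other scalings, filters and tools (limma 3.58.1, DESeq2 1.42.0), the small pre-B libraries alone, a replicate block, and leaving out libraries. Fits of DESeq2 and limma-voom on the small pre-B libraries alone, and DESeq2 without control 3, were added after seeing the data. A group left with 1 library was taken to have the spread of the other groups. Results of some single genes that the rule picks are left out of the text.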

Additional observations from a re-analysis of the deposited data

Results flagged for a closer look

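In 5 named genes the 3 small pre-B KO libraries all lay below the small pre-B controls while both pro-B KO libraries lay above both pro-B controls, and in each of them the test of the difference between the stages did not pass (edgeR quasi-likelihood, adjusted over all tested genes). Angpt1 had a log2 fold change of -2.54 in small pre-B and 0.52 in pro-B cells, a difference of -3.05 (adjusted p = 0.533). Hvcn1 had -0.57 and 0.34, a difference of -0.91 (adjusted p = 0.471), with pro-B levels of 291 and 233 CPM in controls and 331 and 332 CPM in KO. Pecam1 had -0.58 and 0.21, a difference of -0.79 (adjusted p = 0.678). For Notch2 the values were -1.46 and 0.13 and the difference was -1.58 (adjusted p = 0.689). Hist1h2an, which did not pass in small pre-B cells and whose control level is that of control 3, had a difference of -9.38 (adjusted p = 0.733). Of the 161 genes lower in small pre-B KO, 16 (9.94%) had this opposite order in pro-B cells, beside 3 of the 267 higher genes (1.12%). Over all tested genes, both pro-B KO libraries lay beyond both pro-B controls against the sign of the small pre-B value in 2501 (17.7%), so the called genes had this order in a smaller share than all genes.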

How the results depend on the processing

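The 267 higher and 161 lower genes became 283 and 186 with DESeq2 size factors, 266 and 156 with upper-quartile scaling, 313 and 124 with limma-voom, 271 and 159 without a filter, and 307 and 192 with 1 CPM in every library of a group. Counts moved further with the DESeq2 Wald test (1068 and 801) and with a replicate block by title number (126 and 27). Leaving out the KO libraries with Xist RNA left only KO 3 in the KO group, so the calls of that fit are not compared. The 6 small pre-B libraries alone gave 0 and 0 in edgeR (2166 at an unadjusted p under 0.05), 468 and 287 in DESeq2 and 1 and 0 in limma-voom. DESeq2 without control 3 gave 758 and 456. Leaving out 1 library at a time gave 1 to 937 higher and 0 to 730 lower genes, and a log2 fold change of at least 1 left 207 and 84. The share of calls that were higher was 62.4%. It was larger with limma-voom (71.6%), with the block (82.4%) and without KO 3 (81.9%), and smaller with the DESeq2 Wald test (57.1%), without control 2 (56.2%) and without KO 2 (55.6%). The cause of these moves was not tested.

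For Mta2 the log2 fold change was -0.93 in the small pre-B libraries alone (adjusted p = 0.149, edgeR) and -0.88 with the replicate block (0.0587). Without the KO libraries with Xist RNA, which leaves KO 3 alone, it was -0.88. By limma-voom on the small pre-B libraries it was -0.89 (0.138), and with 1 library left out -1.15 to -0.78. Mta2 passed in 9 of 18 alternatives. The 224 genes called with and without control 3 were 0 in the small pre-B libraries alone and 1080 by DESeq2. The share with the same sign in pro-B cells was 90.7%, and 83.7% for the DESeq2 calls. Among single genes 1047 values kept their sign and their side of the threshold, 501 lost their call, 53 gained one and 1 changed sign. That was Xist, at a log2 fold change of 7.31 with all libraries (adjusted p = 0.0874, edgeR). Its value was -0.56 without the KO libraries with Xist RNA, an alternative that removes the libraries where it was high.

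The title numbers were not treated as pairs. Deviations of same-numbered libraries correlated at 0.092, 0.18 and 0.043, so 1 of 3 was over 0.1, though each control correlated best with the KO library of its own number (3 of 3), a hint from the data and not from the design. At this depth, genes under about 0.173 CPM could not be told from 0.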
